A study of Mus musculus with 18 samples.

Results

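Tubulins are the building blocks of microtubules, and the genes described here are 10 α- and β-tubulin genes of the mouse, taken by their symbols as members of this family, with earlier results of these data known. The α-tubulin genes are Tuba1a, Tuba1b, Tuba1c, Tuba4a and Tuba8, and the β-tubulin genes are Tubb2a, Tubb2b, Tubb4b, Tubb5 and Tubb6. All 10 were found among the 56691 genes of the deposited table. Liver RNA of C57BL/6 mice of wild-type (WT) genotype was sequenced, with 6 libraries in each of 3 groups. Sham mice were anesthetized and had their abdomen opened without clipping of vessels. In the IR group clips on the portal triad cut off the blood supply of the median and left lobes, about 70% of the liver, for 1 h, and 6 h of reperfusion followed. Mice of the IR-Ori group went through the same procedure and received oridonin, a diterpenoid of the herb Isodon rubescens, with dose, route and time not given in the sources used here. Age, sex and the number of animals are not stated. The labels leave it unsaid if each library came from a mouse of its own, so the p-values measure only the spread between these libraries.

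One α-tubulin and one β-tubulin molecule pair to form a heterodimer, and heterodimers stack end to end into the hollow polymers called microtubules. Each family is encoded by several genes whose products, the isotypes, differ most in their acidic carboxy-terminal tails, where motor proteins and modifying enzymes bind. In hepatocytes microtubules carry secretory vesicles with plasma proteins and lipoproteins to the cell surface. Cells also adjust tubulin mRNA to the amount of free tubulin: when unpolymerised tubulin builds up, the new amino-terminal residues leaving the ribosome are recognised and the mRNA being translated is degraded.

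That recognition acts on the first residues of the protein, so the first 30 coding bases of 5 of the more abundant isotypes are shown here, 5′ to 3′, with the first 4 codons, which encode the recognised residues, in capitals. They were read from the GENCODE M21 transcripts of build GRCm38.
Tubb2a: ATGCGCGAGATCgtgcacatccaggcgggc
Tubb4b: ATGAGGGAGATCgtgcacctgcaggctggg
Tubb5: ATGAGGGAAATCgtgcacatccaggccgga
Tuba1c: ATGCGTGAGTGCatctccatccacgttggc
Tuba4a: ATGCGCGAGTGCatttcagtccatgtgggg

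The other end of the coding sequence sets the β-tubulin isotypes apart. Below are the last 69 coding bases, up to and including the stop codon, with capitals at the bases that differ from Tubb2a once each stretch is aligned to it.
Tubb2a: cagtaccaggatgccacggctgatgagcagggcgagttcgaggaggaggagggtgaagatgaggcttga
Tubb2b: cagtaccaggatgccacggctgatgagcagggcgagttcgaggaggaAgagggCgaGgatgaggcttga
Tubb4b: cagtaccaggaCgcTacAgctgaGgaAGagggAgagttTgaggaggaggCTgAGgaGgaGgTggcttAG
Tubb5: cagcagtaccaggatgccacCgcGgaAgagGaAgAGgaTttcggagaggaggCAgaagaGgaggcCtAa
Tubb2b differed from Tubb2a at 3 of these bases, Tubb4b at 17 and Tubb5 at 13. The coding sequence of Tubb5 has 1335 bases, against 1338 in Tubb2a. Bases of Tubb2a that are missing from Tubb5 carry no capital, so its 13 leaves them out and cannot be ranked against the 17. Over the whole coding sequence Tubb2a and Tubb2b were 96.5% identical, and their longest identical run was 551 bases. Tuba1a and Tuba1b were 98.3% identical, Tuba1b and Tuba1c 97.9% and Tuba1a and Tuba1c 97.1%. The other pairs within a family shared 79.2% to 85.3% of their bases.

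Likeness of this degree bears on the counts, since a read that matches 2 genes can be given to either or to none, and the counting rule was not given in the sources used here. Among all 50-base words in the transcript, 72.9% for Tuba1a, 73.8% for Tuba1b and 61% for Tuba1c also occurred in a transcript of another gene. The values of those 3 genes are therefore uncertain as to which of them the reads came from. For Tubb2a 49.6% of the words were shared, 45.6% with Tubb2b. For Tubb4b 50.9% were shared, 43.6% with its pseudogene Tubb4b-ps1, which had only 67 counts over all 18 libraries. Of the words of Tubb6 0% were shared, of Tubb5 0.115%, of Tuba8 0.181% and of Tuba4a 1.11%, so their reads can be told from those of other tubulins.

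In the table's GRCm39 coordinates, Tuba1b (chr15:98829306-98832446), Tuba1a (chr15:98847718-98851584) and Tuba1c (chr15:98927772-98935991) lie close together. Tubb2a (chr13:34258257-34261990) and Tubb2b (chr13:34310731-34314449) are likewise neighbours on the minus strand. Tuba4a is at chr1:75190872-75196509, Tuba8 at chr6:121187655-121203813, Tubb4b at chr2:25112172-25114714, Tubb5 at chr17:36144813-36149198 and Tubb6 at chr18:67523787-67535819. GENCODE M21 annotates all 10 as protein-coding, with 444 to 451 codons before the stop.

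Libraries held 12449529 to 19798188 counts, of which 2304 to 21331 fell on the 10 tubulin genes. Levels are given as the deposited FPKM (counts scaled by exonic gene length and library total), and differences as log2 fold changes of the counts ± SE from edgeR. Between tubulins the FPKM can be compared only within the limit set by reads that match more than 1 gene. The hepatocyte gene Alb ranged from 6522 to 27702 FPKM and was thus abundant in every library. Counts of mitochondrially encoded genes made up 21.9 ± 12.9% of a sham library (mean ± SD, n = 6), 19.2 ± 12.99% of an IR library and 27.1 ± 6.60% of an IR-Ori library. The share did not differ between groups beyond its spread (two-sided exact permutation tests gave p = 0.712 between IR and sham, 0.212 between IR-Ori and IR and 0.370 between IR-Ori and sham). It touches the tubulin values, and those results are given after the comparisons.

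In sham liver Tubb4b, a β-tubulin made in most tissues, had the highest level of the 10, at 45.7 ± 21.2 FPKM (SD, n = 6). Tuba4a, an α-tubulin whose gene does not encode the terminal tyrosine that most other α-tubulins carry, followed at 26.0 ± 9.34 FPKM. Tuba1c, a broadly expressed α-tubulin, stood at 20.6 ± 10.4 FPKM and Tubb2a, a β-tubulin best known from neurons, at 15.8 ± 5.42 FPKM. Tubb5, the chief β-tubulin of many dividing cells, had 8.79 ± 3.39 FPKM, and Tuba1b, another broadly expressed α-tubulin, 6.61 ± 3.41 FPKM. Below them were Tubb6 (3.19 ± 0.520 FPKM), Tuba8 (1.12 ± 0.863 FPKM), Tuba1a (0.802 ± 0.545 FPKM) and Tubb2b (0.0267 ± 0.0250 FPKM). The ranges of neighbours in this order overlapped everywhere except between Tuba1a and Tubb2b, although Tubb4b exceeded Tuba4a in 6 of 6 sham libraries.

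The order was not the same in the other groups. In IR, Tubb2a had the highest mean, at 118 ± 111 FPKM, ahead of Tubb4b at 90.9 ± 48.3 FPKM. It exceeded Tubb4b in only 2 of the 6 IR libraries, and their ranges overlapped. In IR-Ori, Tubb4b again led at 41.9 ± 13.8 FPKM, followed by Tuba4a at 23.5 ± 6.52 FPKM and Tubb2a at 21.0 ± 7.89 FPKM. Tuba4a exceeded Tubb2a in 3 of 6 IR-Ori libraries, so those neighbours did not differ beyond their spread.

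**Figure D1:**
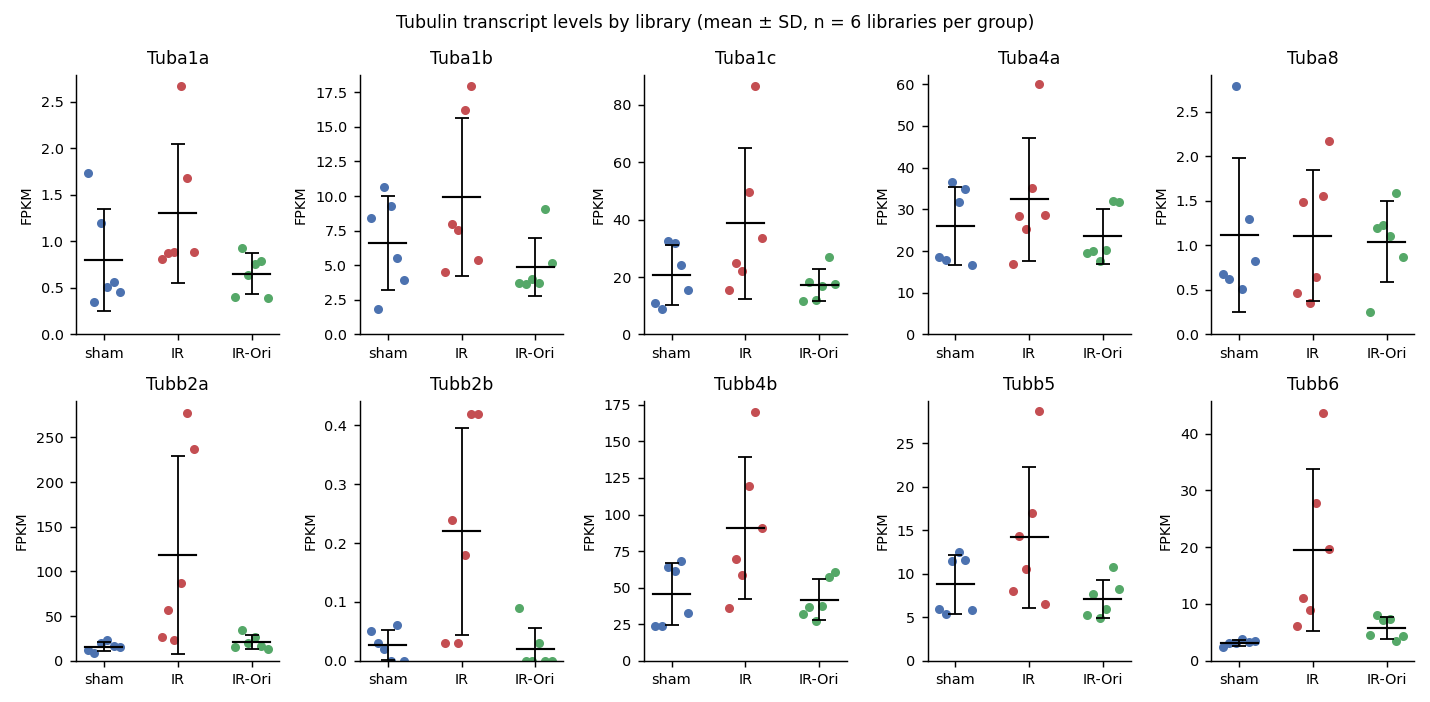
Level of each of the 10 tubulin genes (y axis, FPKM, a separate scale from 0 in each panel) in the 6 libraries of sham, IR and IR-Ori (points), with the mean (long bar) and SD (whiskers). Tubb6 in IR lies between 6.17 and 43.72 FPKM, above all sham libraries, while Tuba8 overlaps in all 3 groups.

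The first comparison, IR against sham, asks how tubulin transcripts differ after ischemia and reperfusion. The β-tubulins Tubb2a and Tubb6 rose, 6.94-fold and 5.5-fold, and none of the other 7 tubulins tested passed the threshold of an adjusted p under 0.05. Over all 14595 genes tested, 5.52% were called higher and 2.36% lower, so that 2 of 9 tubulins called higher is to be read beside 5.52%. Tubb2b did not pass the filter on low counts and was not tested. The log2 fold change was positive in 8 of the 9 tested tubulins and negative in 1, with a median of 0.58, beside 0.00 over all genes.

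Tubb2a stood at 8.42, 15.7 and 23.51 FPKM (lowest, median and highest) in sham and at 23.43, 72.1 and 277.45 FPKM in IR. By library the IR values were 27.12, 56.71, 23.43, 87.46, 277.45 and 237.37 FPKM for IR 1 to IR 6, so IR 5 and IR 6 were the highest by far. Of the IR libraries 5 lay above all of sham, and IR 3 lay just under the highest sham library. The log2 fold change was 2.79 ± 0.51 (edgeR adjusted p = 0.00319), and it ranked 100 by p among all genes tested.

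Tubb6 is a divergent β-tubulin whose overproduction is known to destabilise microtubules in cultured cells. It stood at 2.34, 3.19 and 3.91 FPKM in sham and at 6.17, 15.3 and 43.72 FPKM in IR. All 6 IR libraries were above all 6 sham libraries. The log2 fold change was 2.47 ± 0.35 (edgeR adjusted p = 0.000722), rank 19 by p. Leaving out any 1 of the 12 libraries left both genes called, with log2 fold changes of 2.35 to 2.99 for Tubb2a and 2.16 to 2.60 for Tubb6.

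The remaining β-tubulins moved less. Tubb4b stood at 23.54, 47.2 and 68.52 FPKM in sham and at 35.94, 80.1 and 170.41 FPKM in IR, with 4 IR libraries above all of sham. Its log2 difference was 0.88 ± 0.32 (edgeR adjusted p = 0.0989). Tubb5 ranged from 5.42 to 12.46 FPKM in sham and from 6.50 to 28.70 FPKM in IR, and its log2 difference was 0.57 ± 0.29 (edgeR adjusted p = 0.237). Tubb2b was close to undetected: its counts summed to 6 over the sham libraries and 45 over the IR libraries, with at most 15 in 1 library. With no filter on low counts its log2 difference was 2.74 ± 0.89 (edgeR adjusted p = 0.0873), and its likeness to Tubb2a leaves the origin of so few counts uncertain.

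None of the 5 α-tubulins passed the test. Tuba1c stood at 8.84, 19.8 and 32.64 FPKM in sham and at 15.64, 29.2 and 86.66 FPKM in IR, with a log2 difference of 0.78 ± 0.35 (edgeR adjusted p = 0.180). Tuba1b differed by 0.46 ± 0.36 and Tuba1a, the α-tubulin of developing neurons, by 0.58 ± 0.40 on the log2 scale. Tuba4a ranged from 16.56 to 36.53 FPKM in sham and from 16.86 to 60.11 FPKM in IR, and its log2 difference was 0.21 ± 0.25 (edgeR adjusted p = 0.657). Tuba8, an α-tubulin best known from muscle and testis, differed by -0.07 ± 0.49, and the sign of this small value turned in some alternatives. The α-tubulin ranges of sham and IR overlapped for each gene.

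**Figure D2:**
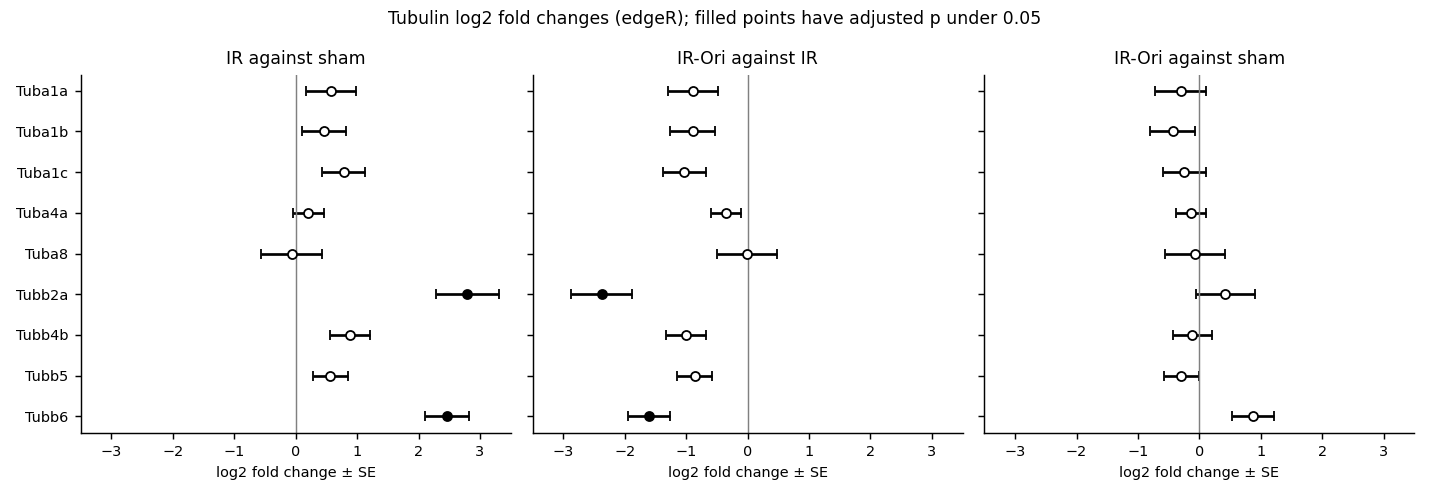
Log2 fold change (x axis) ± SE of the 9 tested tubulin genes in the 3 comparisons, from edgeR over 18 libraries, with filled points where the adjusted p was under 0.05. Only Tubb2a and Tubb6 are filled, at 2.79 and 2.47 in IR against sham and at -2.37 and -1.60 in IR-Ori against IR.

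The second comparison, IR-Ori against IR, asks how tubulin transcripts differ when oridonin was given. It shares the 6 IR libraries with the first comparison. Tubb2a and Tubb6 fell, and no tubulin rose. Of all genes tested 3.01% were called lower and 0.596% higher, beside which the 2 of 9 tubulins called lower are to be read. All 9 log2 fold changes were negative, with a median of -0.89, beside 0.00 over all genes, and 7 of 9 had an unadjusted p under 0.05, as had 24.2% of all genes.

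Tubb2a stood at 13.28, 18.3 and 34.39 FPKM in IR-Ori, and 4 of its 6 libraries lay below all of IR, while IR-Ori 2 and IR-Ori 4 overlapped with the lowest IR libraries. The log2 fold change was -2.37 ± 0.50, a 5.18-fold lower level (edgeR adjusted p = 0.0149). Tubb6 stood at 3.54, 5.82 and 8.07 FPKM in IR-Ori, with 3 libraries below all of IR and the other 3 between the lowest and the next IR library. Its log2 fold change was -1.60 ± 0.34, a 3.03-fold lower level (edgeR adjusted p = 0.0159).

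Both calls were close to the threshold. Neither gene was called with limma on log2(FPKM + 1) (limma adjusted p = 0.0632 for Tubb2a and 0.0556 for Tubb6) or in a fit of only the 2 groups compared (edgeR adjusted p = 0.0521 and 0.0585). Tubb6 also lost its call without IR 4 or without IR-Ori 1, with an edgeR adjusted p of up to 0.0535, whereas Tubb2a kept its call without any 1 library.

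Tubb4b stood at 27.17, 37.1 and 60.79 FPKM in IR-Ori, with 2 libraries below all of IR, and its log2 difference was -0.999 ± 0.32 (edgeR adjusted p = 0.0825). Tubb5 ranged from 4.87 to 10.75 FPKM, with a log2 difference of -0.86 ± 0.29 (edgeR adjusted p = 0.0893). Tuba1c stood at 11.49, 17.2 and 26.98 FPKM and differed by -1.03 ± 0.35 (edgeR adjusted p = 0.0956). DESeq2 called these 3 genes lower as well (DESeq2 adjusted p = 0.0338 for Tubb4b, 0.0475 for Tubb5 and 0.0480 for Tuba1c), which makes 5 of 9 tubulins lower under that tool, beside 6.08% of all genes.

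Tuba1b differed by -0.89 ± 0.36 and Tuba1a by -0.89 ± 0.41 on the log2 scale, with an edgeR adjusted p of 0.146 and 0.194. Tuba1a in IR-Ori was below all of IR in 5 of 6 libraries, at levels of only 0.39 to 0.93 FPKM. Tuba4a ranged from 17.71 to 31.89 FPKM, inside the range of IR, and differed by -0.35 ± 0.25. Tuba8 differed by -0.01 ± 0.49. Tubb2b had a sum of 4 counts over the 6 IR-Ori libraries.

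The third comparison sets IR-Ori against sham. No tubulin was called, nor was any of the 14595 genes (0% higher and 0% lower by edgeR), and DESeq2 and limma called no tubulin either. At an unadjusted p under 0.05 edgeR gave 1 of 9 tubulins, Tubb6, beside 10% of all genes, so this count is near the background. Tubb6 was 3.54 to 8.07 FPKM in IR-Ori and 2.34 to 3.91 FPKM in sham, with 5 of 6 IR-Ori libraries above all of sham. Its log2 difference was 0.87 ± 0.34 (edgeR adjusted p = 0.494). Tubb2a differed by 0.42 ± 0.48 (edgeR adjusted p = 0.713), with 2 IR-Ori libraries above all of sham. The other 7 tested tubulins had log2 differences of -0.44 to -0.08.

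Levels per length also allow the tubulins to be summed, within the limit of shared reads, as a description without a test. The 10 genes together came to 129 ± 51.1 FPKM in sham (SD, n = 6), to 327 ± 213 FPKM after IR and to 123 ± 25.9 FPKM with oridonin. The β-tubulin sum had a median of 77.9 FPKM in sham, of 202 FPKM after IR and of 81.8 FPKM with oridonin. The α-tubulin sum had medians of 53.3, 67.0 and 43.4 FPKM in the same order. The ratio of the β to the α sum ranged from 1.08 to 1.54 in sham, from 1.82 to 5.02 after IR and from 1.25 to 1.96 with oridonin, so that IR did not overlap with sham.

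Within the β-tubulins the make-up differed as well. In sham Tubb2a made up 16.2% to 26.9% of the β sum, whereas the IR libraries reached from 23.0% to 66.9% and those with oridonin from 15.3% to 39.7%. Tubb4b made up 54.1% to 68.8% in sham and 25.6% to 57.8% in IR, and it was the largest β isotype in all libraries except IR 5 and IR 6. Tubb5 took 10.1% to 13.6% in sham, and as little as 1.83% in IR. Within the α-tubulins Tuba4a made up 43.1% to 60.6% in sham and 33.6% to 45.0% in IR, and in IR-Ori, at 45.3% to 57.0%, it lay above all of IR. Tuba1c made up 27.4% to 42.9% of the α sum in sham, 39.1% to 51.6% after IR and 31.4% to 41.6% with oridonin. The split among Tuba1a, Tuba1b and Tuba1c carries the uncertainty of their shared sequence. Sums, shares and the β to α ratio carry it too, since reads that match 2 genes may have been given to none. In that case Tuba1a, Tuba1b, Tuba1c, Tubb2a, Tubb2b and Tubb4b would be too low. The shares of Tuba4a, Tuba8, Tubb5 and Tubb6, with few or no shared words, would then be too high.

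**Figure D3:**
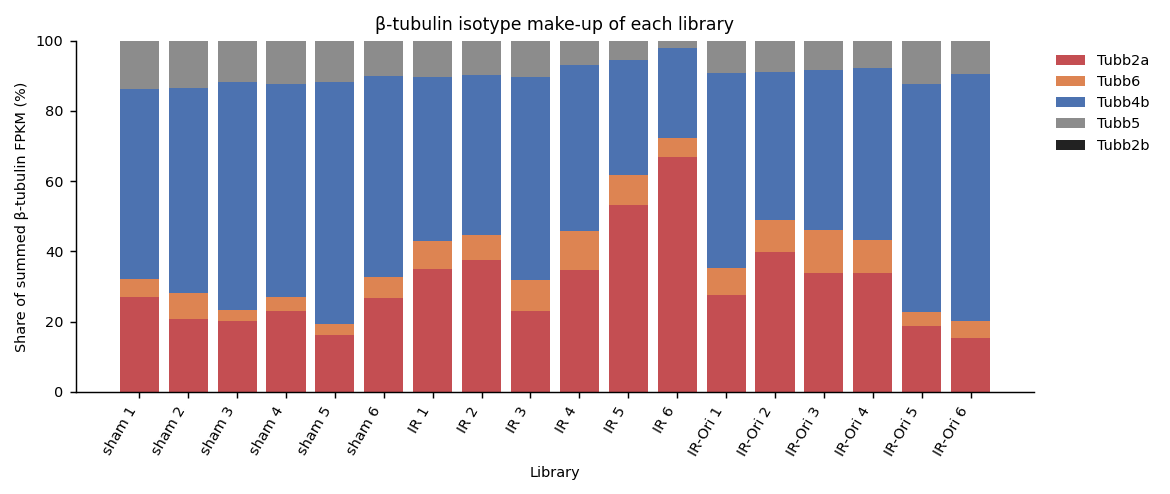
Share of each β-tubulin gene in the summed β-tubulin FPKM (y axis, %) of each of the 18 libraries (x axis), stacked to 100%, with Tubb2b too small to be seen. Tubb2a reaches 66.9% in IR 6, while in sham it stays between 16.2% and 26.9%.

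Several tubulins moved with the mitochondrial share of a library. In a fit over 18 libraries with the group and the share as terms, 4 of the 9 tubulins (Tuba1b, Tuba1c, Tubb2a and Tubb4b) were lower where the share was larger, and none was higher. Of the 14579 nuclear genes 23.0% were lower and 19.8% higher, beside which this count is to be read. The slope was -0.48 ± 0.10 log2 units per 10 percentage points for Tuba1b and -0.51 ± 0.17 for Tubb2a (edgeR adjusted p = 0.000892 and 0.0227). Tubb6 had a slope of -0.20 ± 0.14 and did not pass (edgeR adjusted p = 0.258).

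Sham 1, sham 3, sham 4, IR 4, IR 5, IR 6 and IR-Ori 5 had a share under 15%. Among these, Tubb2a was 11.71, 19.80 and 23.51 FPKM in sham and 87.46, 277.45 and 237.37 FPKM in IR. The log2 fold change of IR against sham, from a fit to these 7 libraries, was 3.33 ± 0.47 for Tubb2a and 3.11 ± 0.28 for Tubb6 (edgeR adjusted p = 0.00837 and 0.00299), and 5.87% of all genes were called higher. In the libraries with a share over 15%, Tubb2a was 8.42, 16.08 and 15.36 FPKM in sham 2, sham 5 and sham 6, and 27.12, 56.71 and 23.43 FPKM in IR 1, IR 2 and IR 3. There the log2 differences were 1.36 ± 0.39 for Tubb2a and 1.34 ± 0.28 for Tubb6, and neither was called (edgeR adjusted p = 0.226 and 0.0911). Of all genes 0.0943% were called higher in that fit. Whether the difference depends on the share was not tested.

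The share also bears on the comparison with oridonin, because only 1 IR-Ori library, IR-Ori 5, had a share under 15%. With the share as a covariate, IR-Ori against IR gave -1.64 ± 0.44 for Tubb2a and -1.34 ± 0.36 for Tubb6, and neither was called (edgeR adjusted p = 0.0573 and 0.0559), while 1.58% of all genes were called lower. Among the libraries over 15%, 3 of IR and 5 of IR-Ori, the log2 differences were -0.65 ± 0.34 and -0.42 ± 0.24 (edgeR adjusted p = 0.548 and 0.581), and 0.101% of all genes were called lower. With the covariate, IR against sham kept both calls, at 2.39 ± 0.43 for Tubb2a and 2.31 ± 0.35 for Tubb6, beside 7.93% of all genes called higher.

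**Figure D4:**
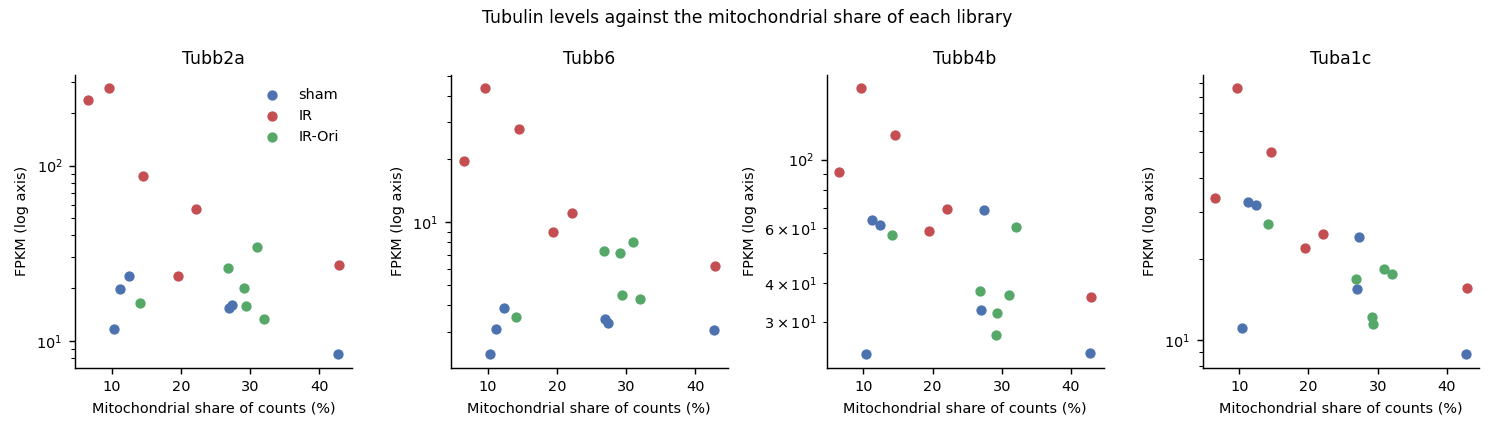
Levels of Tubb2a, Tubb6, Tubb4b and Tuba1c (y axis, FPKM, log axis) against the mitochondrial share of counts (x axis, %) in the 18 libraries, coloured by group. The 3 IR libraries with a share under 15% hold the 3 highest values of each of the 4 genes, and 5 of 6 IR-Ori libraries lie above 25%.

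**Figure D5:**
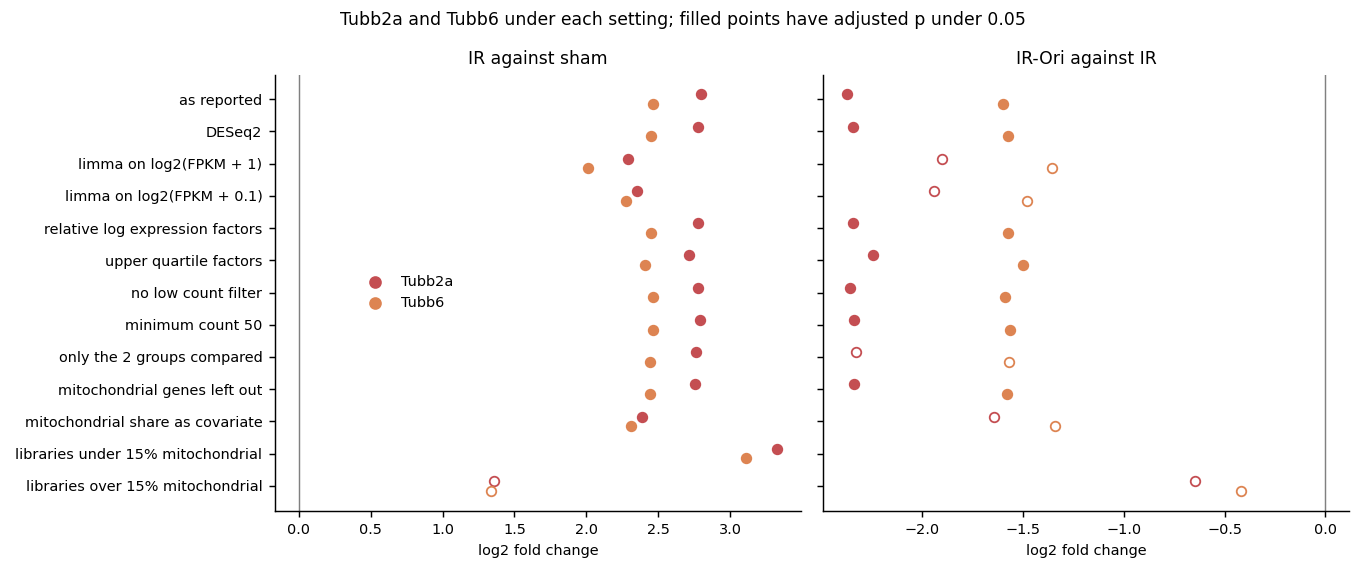
Log2 fold change (x axis) of Tubb2a and Tubb6 under each way of processing (y axis) in IR against sham (left) and IR-Ori against IR (right), with filled points where the adjusted p was under 0.05. In IR against sham only the points of the libraries over 15% are open, at 1.36 and 1.34, while in IR-Ori against IR both genes are also open under limma at either pseudocount, in the fit of only the 2 groups and with the covariate.

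Bulk liver RNA mixes many cell types, and fewer cells of a type cannot be told apart from less RNA per cell. Over all genes tested, 5.52% were called higher in IR against sham and 3.01% lower in IR-Ori against IR. The counts of called markers that follow are to be read beside these shares. Of the neutrophil markers 10 of 10 tested rose in IR against sham and 3 fell in IR-Ori against IR. Their summed level ranged from 4.03 to 27.10 FPKM (sham), from 70.27 to 317.16 FPKM (IR) and from 7.73 to 64.86 FPKM (IR-Ori), and none was at 0 throughout a group. Of the monocyte and recruited macrophage markers 7 of 9 tested rose and 6 fell, with sums from 60.48 to 129.40 FPKM (sham), from 120.69 to 181.96 FPKM (IR) and from 84.33 to 128.01 FPKM (IR-Ori). Chil3, F13a1, Itgam and S100a4 averaged 0.392, 0.11, 0.295 and 0.555 FPKM in sham. In IR they averaged 11.3, 2.21, 1.55 and 4.04 FPKM, so most of the sum came from other genes of the list. Of the cholangiocyte markers 1 of 6 tested, Sox9, rose by 3.88 ± 0.67 in IR and fell by 3.24 ± 0.64 in IR-Ori against IR on the log2 scale (edgeR adjusted p = 0.00231 and 0.0114). The cholangiocyte sum ranged from 18.05 to 57.86 FPKM (sham), from 40.82 to 83.40 FPKM (IR) and from 11.82 to 36.85 FPKM (IR-Ori). Most of this sum was 1 gene, Spp1, which averaged 43.5 FPKM in IR and 22.1 FPKM in IR-Ori. Spp1 was not called in IR-Ori against IR (edgeR adjusted p = 0.0885). Endothelial markers rose in 3 of 10, with sums from 17.19 to 48.67 FPKM (sham), from 29.46 to 66.61 FPKM (IR) and from 24.37 to 47.25 FPKM (IR-Ori). Of the stellate cell markers 1 of 10, Pdgfrb, rose by 1.07 ± 0.20 (edgeR adjusted p = 0.00346), with sums from 48.44 to 72.73 FPKM (sham), from 58.30 to 94.50 FPKM (IR) and from 41.21 to 82.05 FPKM (IR-Ori). No endothelial or stellate marker was called in IR-Ori against IR. No hepatocyte, Kupffer cell, platelet, T and NK cell or B cell marker tested was called by edgeR in either comparison. At an unadjusted p under 0.05 there were 2 of 6 B cell markers in IR against sham, beside 23.5% of all genes. In IR-Ori against IR there were 3 of 10 Kupffer cell markers, beside 24.2% of all genes, with Clec4f and C6 higher and Cd5l lower. The part of these cells in the Tubb2a and Tubb6 results was not tested.

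Of 10 other tubulin genes examined, 3 passed the filter, and edgeR called none of these 3 in any comparison: Tubg1, the γ-tubulin that nucleates microtubules, Tubd1 and Tube1, the δ- and ε-tubulins of centrioles. Tubg1 averaged 7.20 FPKM in sham, 6.01 FPKM after IR and 6.09 FPKM with oridonin. Tuba3a and Tubal3 had no count in any library, and Tuba3b, Tubb1, Tubb3, Tubb4a and Tubg2 reached at most 9 counts.

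Genes that fold, modify or bind tubulin were mostly not called. CCT, the chaperonin that folds tubulin and actin, had 0 of 8 subunits called in either comparison with IR, with a median log2 difference of 0.36 in IR against sham and -0.61 in IR-Ori against IR. Its subunit Cct5 differed by -1.33 ± 0.39 in IR-Ori against IR (edgeR adjusted p = 0.0593). Prefoldin subunits and tubulin folding cofactors had 0 of 13 called, the genes of tubulin mRNA autoregulation, among them Ttc5, which reads the nascent residues, 0 of 5, tubulin-modifying enzymes 0 of 13, severing enzymes 0 of 5 and the γ-tubulin ring complex 0 of 8. At an unadjusted p under 0.05 edgeR gave 0 of 8 CCT subunits in IR against sham and 6 of 8 in IR-Ori against IR. In the same order it gave 1 and 3 of the 13 folding genes and 4 and 5 of the 13 modifying enzymes. The severing enzymes had 1 and 1 of 5, the ring complex 0 and 2 of 8 and the autoregulation genes none. Of all genes tested 23.5% and 24.2% had such a p, beside which these counts are to be read.

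Of the microtubule-associated and plus-end proteins 1 of 18 rose in IR, Map7d1 at 0.71 ± 0.20 (edgeR adjusted p = 0.0342). Over all genes tested 5.52% were called higher in IR against sham, so this count is near the background. In IR-Ori against IR 3.01% were called lower and 0.596% higher, and the counts that follow are to be read beside these shares. Of the kinesin-1 and dynein motor genes 1 of 13, Dync1li1, a light intermediate chain of cytoplasmic dynein, rose by 1.04 ± 0.30 in IR and fell by 1.14 ± 0.30 in IR-Ori against IR (edgeR adjusted p = 0.0403 and 0.0416). Mitotic genes had 0 of 11 called in IR against sham and 1 of 11, Kif20a, higher in IR-Ori than in IR. The actin cytoskeleton list had 7 of 15 genes higher in IR and 4 lower in IR-Ori than in IR. Its Actg1, a cytoplasmic actin, rose by 3.15 ± 0.59 and fell by 3.40 ± 0.59 on the log2 scale (edgeR adjusted p = 0.00346 and 0.00552).

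Across the 18 libraries the genes most like the mean of the 9 tested tubulins, by Pearson correlation of log2 CPM, were Slc30a4 (r = 0.921), Kpna4 (0.921), Tm4sf4 (0.920), Itgav (0.920), Cdc42se2 (0.916), Eif4e (0.915), Dnajc2 (0.914) and Sqstm1 (0.912). These values are a description over libraries that share groups and mitochondrial shares. Of the 8, Sqstm1, an autophagy receptor, Eif4e, the cap-binding factor of translation, and Itgav, an integrin, rose in IR and fell in IR-Ori against IR, Sqstm1 with log2 fold changes of 1.896 and -1.949 (edgeR adjusted p = 0.0118 and 0.0184).

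The promoters of Tubb2a and Tubb4b, both abundant β-tubulins, are shown here. Tubb2a passed the test in IR against sham, and Tubb4b, at 0.88 ± 0.32, did not (edgeR adjusted p = 0.0989). Whether the changes of these genes differ from each other was not tested. The 250 bases before the RefSeq start site are printed 5′ to 3′ on the gene's strand, in GRCm38.p6 coordinates, which are not those of the table. No exon annotated on the gene's strand overlaps either stretch, and exons on the other strand were not counted. In Tubb2a capitals mark a cyclic AMP response element and a TATA box, and in Tubb4b the CCAAT boxes, in either orientation.
Tubb2a, chr13:34078009-34078258, minus strand: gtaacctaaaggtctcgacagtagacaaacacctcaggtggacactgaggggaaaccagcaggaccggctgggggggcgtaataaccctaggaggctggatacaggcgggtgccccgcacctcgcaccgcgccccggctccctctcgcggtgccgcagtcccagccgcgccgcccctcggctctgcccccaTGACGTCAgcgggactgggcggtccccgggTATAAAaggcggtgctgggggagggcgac
Tubb4b, chr2:25224703-25224952, minus strand: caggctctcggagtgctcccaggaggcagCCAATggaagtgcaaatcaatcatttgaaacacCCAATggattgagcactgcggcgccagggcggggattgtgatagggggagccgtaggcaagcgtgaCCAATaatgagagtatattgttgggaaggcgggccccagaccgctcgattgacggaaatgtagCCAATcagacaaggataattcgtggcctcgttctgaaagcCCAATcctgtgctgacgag

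The promoters of 8 tubulin genes were searched on both strands for 6 motifs, and those of Tubb6 and Tubb2b were not analysed here. The cyclic AMP response element (TGACGTCA) was found in 1 of the 8, Tubb2a, at -59 to -52 from the start site, and in 1.55% of all 32851 promoters of the RefSeq table. The TATA box (TATAAA) was also found in 1 of the 8, Tubb2a, at -29 to -24, and in 12.4% of all promoters. CCAAT boxes (CCAAT) were found in Tuba1a, Tuba1c, Tubb4b and Tubb5, 5 of them in Tubb4b, and in 33.8% of all promoters. GC boxes (GGGCGG) were found in 5 of the 8 and in 32.7% of all. Both Tubb2a and Tubb4b hold GC boxes, which carry no capitals in the printed stretches. AP-1 sites (TGANTCA, 6.75% of all promoters) and heat shock elements (GAANNTTC, 6.69%) had no match in the 8. The matches describe the letters of these windows only.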

How the data were processed

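Per the submitters' processing notes, cutadapt 1.9.1, HISAT2 2.2.1, the mouse build GRCm39 and DESeq2 (no version) were used. The counter and annotation were not given in the sources used here. Unscaled whole-number counts per gene and FPKM made by the authors make up the deposited table. Dividing each count by gene length and library total returned 100% of the deposited FPKM within 0.0051, so their totals include mitochondrial counts. No 2 columns were identical.

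The tubulins and all lists were chosen with earlier results of these data known. Tests on counts used edgeR 4.0.16 (R 4.3.3): filterByExpr (minimum count 10, minimum total 15) kept 14595 of 56691 genes, 9 of 10 tubulins among them. A quasi-likelihood model with a group factor and TMM scaling was fitted to all 18 libraries (15 residual degrees of freedom), with two-sided tests, Benjamini-Hochberg adjustment over all genes and a threshold of 0.05. The common biological coefficient of variation was 0.3984. The test was checked on simulated independent counts with no modelled effect of the mitochondrial share, so the check does not cover that effect. Replicates are the 6 libraries of a group.

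Named genes are all 10 tubulins, up to 4 genes with the smallest p per list and comparison, and the 8 genes most correlated with the tubulins' mean standardized log2 CPM. Alternatives were DESeq2 1.42.0, limma 3.58.1 on FPKM, other scalings and filters, the mitochondrial share and single libraries left out. Coding sequences came from GENCODE M21 (joined by gene identifier, 10 of 10 found), promoters from RefSeq (8 of the 10 genes used), and words of 50 bases were compared over all transcripts.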

Additional observations from a re-analysis of the deposited data

Results flagged for a closer look

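In each of the 30 groups of 6 libraries (10 genes in 3 groups) the highest and lowest FPKM were compared with the nearest other library, and 3 groups held a library far from the rest. Were the values normally spread and the groups independent, chance would give about 1 such group in 20. All 10 genes come from the same libraries and Tubb2b has few counts, so this rate is only a guide. Tuba1b in IR-Ori 5 was 9.04 FPKM, where the other 5 libraries were 3.67 to 5.18. IR-Ori 5 is also the IR-Ori library with the smallest mitochondrial share, 14.1%. Tuba8 in sham 3 was 2.79 FPKM, where the others were 0.51 to 1.30. Tubb2b in IR-Ori 1 was 0.09 FPKM, where the others were 0 to 0.03, a difference of at most 3 counts.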

How the results depend on the processing

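In IR against sham 2 tubulins were called under all settings except in libraries over 15% mitochondrial share, where 0 were. In IR-Ori against IR the count of 2 became 5 with DESeq2 and 0 with limma at either pseudocount, with only the 2 groups compared, with the replicate block, with the mitochondrial share as covariate and in libraries over 15%, and it was 1 to 3 with 1 library left out. Other scalings, no filter, a minimum count of 50 and leaving out the mitochondrial genes gave 2. IR-Ori against sham gave 0 throughout. Without filter edgeR tested 30479 genes. The cause of these changes was not tested. The replicate numbers did not meet the bar for pairing, a correlation over 0.1 in every pair: deviations of same-numbered libraries correlated at -0.441 to 0.335 (IR, sham), 0.0124 to 0.418 (IR-Ori, IR, with 4 of 6 over 0.1 and 3 of 6 best with their own number) and -0.36 to 0.302 (IR-Ori, sham). With the replicate block Tubb2a and Tubb6 differed by 2.48 and 2.35 in IR against sham (edgeR adjusted p = 0.0193 and 0.00441) and by -2.003 and -1.458 in IR-Ori against IR (0.0671 and 0.0535), where both calls ended. Signs turned only for tubulins that were not called. In IR against sham, Tuba4a was -0.0344 in libraries over 15%, and Tuba8 was 0.0629 in libraries under 15% and -0.45 to 0.41 with 1 library left out. In IR-Ori against IR, Tuba8 was 0.0122 with DESeq2, 0.0187 with limma on log2(FPKM + 0.1), 0.0113 with relative log expression factors, 0.0735 with upper quartile factors, 0.00898 without filter, 0.0259 with only the 2 groups, 0.0153 without mitochondrial genes, 0.35 with the covariate, 0.36 in libraries over 15% and -0.17 to 0.38 with 1 library left out. In IR-Ori against sham, Tuba8 was 0.13 and Tubb4b 0.0512 with the covariate, Tuba1a 0.43, Tuba1b 0.0866 and Tuba8 0.0352 in libraries over 15%, and with 1 library left out Tuba8 was -0.23 to 0.40 and Tuba1a -0.48 to 0.0602. The log2 ratio of the summed tubulin FPKM was 1.34 in IR against sham (0.98 to 1.52 with 1 library left out, 1.05 when scaled to nuclear counts) and -1.41 in IR-Ori against IR (-1.58 to -1.04, -1.04), and in IR-Ori against sham its sign turned with the library left out (-0.19 to 0.06). IR-Ori comparisons among libraries under 15% were not run, since 1 IR-Ori library remains. Depth limits Tubb2b, with 0 to 15 counts per library, most.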
